A study of Mus musculus with 16 samples.

Results

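The genes of DNA replication and mitosis were followed through the differentiation of mouse rod photoreceptors in culture. The group held 44 genes picked by name for their textbook roles, out of 32166 in the gene table: 16 that act in DNA replication, 5 that regulate the step from G1 into S phase, and 23 that act in G2 and mitosis. All 44 were found, and all 44 passed the filter on low values (at least 1 CPM, the count scaled to library size, in at least 2 libraries). RNA came from retinal organoids, 3-dimensional cultures in which pluripotent stem cells form retinal tissue. The cells carried the Nrlp-GFP genotype, in which the promoter of Nrl, the rod fate transcription factor, drives green fluorescent protein. Cells positive for GFP were sorted at days 18, 21, 25, 28 and 35 of differentiation and their polyA RNA was sequenced. The embryonic stem cells (ESC) were derived from blastocysts of the reporter mice. The induced pluripotent stem cells (iPSC) were made from E14.5 embryonic fibroblasts of reporter mice with doxycycline-inducible lentiviral Oct3/4, Sox2, Klf4 and c-Myc. Both sources were used at passage 15 to 25 and grown alike, at 5% oxygen up to day 10 and 20% afterwards, with 500 nM retinoic acid until day 26, so days 28 and 35 follow the change of medium and the effects of time and medium cannot be told apart. From ESC there were 3 libraries at day 18, 3 at day 21 and 1 at each later day, and from iPSC 2 at day 18, 1 at day 21, 2 at day 25 and 1 each at days 28 and 35. Nothing in the labels tells if a group's libraries came from separate cultures or clones, so the p-values take in the spread among these libraries alone, and that spread may be technical.

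Before a cell divides, the MCM helicase is loaded onto replication origins, and cyclin E with CDK2 and the E2F factors start S phase, in which the polymerases, their sliding clamp and the enzymes of nucleotide supply copy the genome. Cyclin B with CDK1 then drives mitosis, in which motor proteins and the kinetochore move the chromosomes, a checkpoint holds anaphase back, and FOXM1 activates many of the genes of this phase. In the retina these genes are active in dividing progenitors, and rods leave the cell cycle around the time they begin to express Nrl.

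Libraries held between 2573023 and 14454287 estimated counts over the transcripts listed, and 1 count was worth between 0.037 and 0.213 CPM. A pair of day 18 libraries stood apart. ESC replicate 1 and iPSC replicate 1 are called the low-Nrl pair below, since Nrl was at 17.7 and 15.99 CPM in them, while the remaining day 18 libraries had 136 to 881 CPM of it. Over the 44 genes the 2 libraries of this pair were a median of 1.10-fold apart, and at most 1.47-fold (Pold1), although their labels give different sources, while the other pairs of day 18 libraries were a median of 1.22 to 4.62-fold apart. The 12 progenitor markers checked (Ccnd1, itself a cell cycle gene, among them) summed to 2995 to 3049 CPM in the pair and to 455 to 1904 CPM in the other day 18 libraries. The 9 rod markers summed to 243 to 245 CPM in the pair, with Pde6a under 1 CPM, and to 1347 to 4449 CPM in the others. The Y-linked gene Ddx3y was at 15.0 to 70.1 CPM in every ESC library except day 18 replicate 1 (0.241 CPM), and under 1 CPM in every iPSC library except day 18 replicate 2 (30.8 CPM) and day 25 replicate 1 (8.60 CPM). All libraries stay in the groups their labels give. Most limma counts of called genes, median changes and shares left that rest on the pair are given with and without it. The fits of edgeR and DESeq2, the fit to rescaled CPM, the contrasts within a source and the day 18 means in CPM include it.

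Promoters were read from RefSeq for 36 of the 44 genes, as the 250 bases before the start on GRCm38.p6, because the genes were followed as a group. Letters of the E2F consensus (TTTCCCGC, TTTCGCGC, TTTGCCGC or TTTGGCGC on either strand) were present in 4 of 14 replication genes (28.6%), 1 of 18 mitosis genes (5.6%) and 2.2% of all 27025 promoters. The letters of the cell cycle homology region, CHR (TTTGAA on either strand), were present in 7 of 18 mitosis genes (38.9%), 2 of 14 replication genes (14.3%) and 18.3% of all promoters. CCAAT, on either strand, stood in 16 of 18 mitosis genes (88.9%), 10 of 14 replication genes (71.4%) and 37.5% of all promoters. Copies were allowed to overlap, and a match is a description of the sequence, not a bound site. The sequences shown are those of the 2 replication and 2 mitosis genes with the highest mean level among genes with an E2F or CHR match, written 5′ to 3′ on the coding strand, the minus strand in all 4 cases. Capitals mark E2F letters in Mcm7 (chr5:138172030-138172059, 30 bases around the match, within the transcribed region of another start) and Mcm6 (chr1:128359706-128359955), and CHR letters in Top2a (chr11:99024190-99024439) and Mki67 (chr7:135716380-135716629).
Mcm7: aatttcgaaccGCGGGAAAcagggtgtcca
Mcm6: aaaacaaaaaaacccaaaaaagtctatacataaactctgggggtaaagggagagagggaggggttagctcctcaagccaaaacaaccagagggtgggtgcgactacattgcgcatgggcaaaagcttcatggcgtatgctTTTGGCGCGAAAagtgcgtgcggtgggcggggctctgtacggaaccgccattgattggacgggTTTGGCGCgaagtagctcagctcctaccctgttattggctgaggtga
Top2a: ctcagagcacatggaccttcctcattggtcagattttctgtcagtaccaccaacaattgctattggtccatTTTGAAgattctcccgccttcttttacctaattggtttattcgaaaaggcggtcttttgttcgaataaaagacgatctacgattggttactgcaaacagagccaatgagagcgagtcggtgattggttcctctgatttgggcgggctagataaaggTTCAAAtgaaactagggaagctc
Mki67: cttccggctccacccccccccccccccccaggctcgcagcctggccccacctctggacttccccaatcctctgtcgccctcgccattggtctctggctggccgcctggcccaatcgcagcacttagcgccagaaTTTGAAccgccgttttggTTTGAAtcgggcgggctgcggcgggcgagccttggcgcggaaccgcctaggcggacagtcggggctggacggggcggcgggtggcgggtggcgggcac
In Mcm6 the E2F letters occur 3 times, with 2 overlapping copies on opposite strands. Top2a and Mki67 hold 2 CHR copies each.

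**Figure D1:**
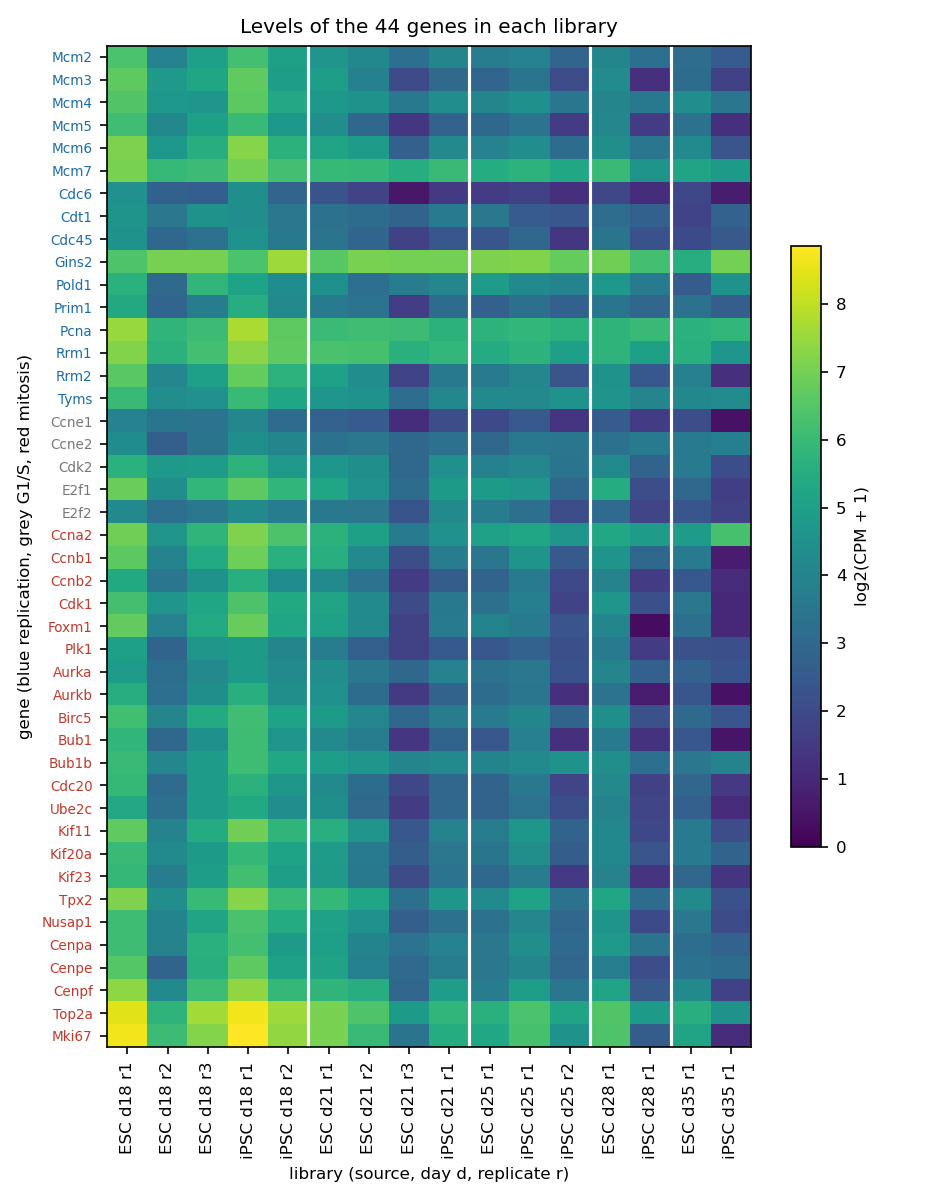
Levels of the 44 genes as log2(CPM + 1) (colour), with 1 row per gene (blue names replication, grey G1/S regulators, red mitosis) and 1 column per library, ordered by day with white lines between days. The low-Nrl pair (ESC and iPSC replicate 1 of day 18) are the brightest for 40 of the 44 genes, and Gins2 and Pcna keep a bright row to day 35.

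Most of the 44 genes were high at day 18 and low at days 25 to 35, and most were highest in the low-Nrl pair. In that pair 41 of the 44 genes were above every other day 18 library (20.2% of all genes were), the exceptions being Cdt1, Gins2 and Pold1. Against the other 14 libraries 40 of the 44 were highest in the pair (11.2% of all genes were), with E2f2 as the further exception. The values below are in CPM, with the libraries of a group in the order of their replicate numbers. CPM is not scaled by transcript length, so values are compared between libraries and not between genes. A lower value in sorted cells can come from fewer dividing cells or from less RNA per cell, which bulk libraries cannot tell apart.

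Among the replication genes, Mcm2 to Mcm7 encode the 6 subunits of the helicase that is loaded at origins, with the loading factors Cdc6 and Cdt1. Mcm5 measured 69.5, 16.4 and 31.7 CPM in the ESC and 63.4 and 25.2 CPM in the iPSC libraries of day 18, and 20.3, 6.91 and 1.64 CPM (ESC) and 5.95 CPM (iPSC) at day 21. For Mcm5, day 25 gave 6.85 CPM in ESC and 9.28 and 1.90 CPM in iPSC, day 28 gave 16.1 and 1.96 CPM, and day 35 gave 9.22 and 1.26 CPM in ESC and iPSC. The low-Nrl pair was above all other libraries, and the groups of day 18 and of days 28 and 35 did not overlap. Mcm3, Mcm4, Mcm6, Cdc6 and Cdt1 likewise had every library of days 28 and 35 below every day 18 library, while Mcm2 and Mcm7 overlapped. Pcna is the sliding clamp that tethers DNA polymerase. Pcna measured 178, 54.01 and 66.1 CPM in the ESC and 210 and 99.5 CPM in the iPSC libraries of day 18, and 64.2, 69.8 and 66.1 CPM (ESC) and 50.98 CPM (iPSC) at day 21. For Pcna, day 25 gave 52.3 CPM in ESC and 57.05 and 51.1 CPM in iPSC, day 28 gave 53.7 and 63.2 CPM, and day 35 gave 48.99 and 57.6 CPM in ESC and iPSC. Apart from iPSC replicate 2, the day 18 libraries outside the pair lay within the range of the later days, and the lowest library of all was still at 49.0 CPM. Rrm2 is the regulated subunit of ribonucleotide reductase, which makes deoxynucleotides. Rrm2 measured 94.95, 16.3 and 31.1 CPM in the ESC and 109 and 51.8 CPM in the iPSC libraries of day 18, and 32.8, 19.4 and 2.42 CPM (ESC) and 11.1 CPM (iPSC) at day 21. For Rrm2, day 25 gave 11.1 CPM in ESC and 16.1 and 4.02 CPM in iPSC, day 28 gave 22.1 and 4.48 CPM, and day 35 gave 13.4 and 1.33 CPM in ESC and iPSC. ESC replicate 2 of day 18 lay below the ESC library of day 28, so those days overlapped. Gins2, a subunit that activates the helicase, was the exception among the replication genes: its lowest day 18 values, 84.7 and 79.8 CPM, were in the low-Nrl pair, and its highest of all, 190 CPM, in iPSC day 18 replicate 2. The remaining 12 replication genes had day 18 means between 11.7 ± 8.23 CPM (SD, n = 5) for Cdc6 and 106 ± 45.5 CPM (SD, n = 5) for Rrm1, the large subunit of ribonucleotide reductase, and means over days 28 and 35 between 1.81 ± 1.05 CPM (SD, n = 4) and 39.4 ± 13.6 CPM (SD, n = 4) for the same genes. For Cdc45, which travels with the helicase, these means were 14.2 ± 7.37 CPM (SD, n = 5) and 5.28 ± 3.20 CPM (SD, n = 4).

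The G1/S regulators hold the 2 E-type cyclins, their kinase and 2 activating E2F factors. Ccne1 measured 14.1, 9.94 and 9.41 CPM in the ESC and 16.1 and 7.61 CPM in the iPSC libraries of day 18, and 5.81, 4.91 and 1.24 CPM (ESC) and 3.32 CPM (iPSC) at day 21. For Ccne1, day 25 gave 2.92 CPM in ESC and 4.61 and 1.60 CPM in iPSC, day 28 gave 5.04 and 2.01 CPM, and day 35 gave 3.33 and 0.340 CPM in ESC and iPSC. All of the libraries of days 28 and 35 were below all of day 18. Ccne2, the second cyclin E, did not follow it: it ranged from 5.49 to 20.2 CPM at day 18 and from 8.85 to 13.1 CPM at days 28 and 35. Cdk2 measured 49.8, 26.7 and 28.1 CPM in the ESC and 51.6 and 26.2 CPM in the iPSC libraries of day 18, and 24.1, 20.4 and 6.74 CPM (ESC) and 20.6 CPM (iPSC) at day 21. For Cdk2, day 25 gave 13.8 CPM in ESC and 15.99 and 9.52 CPM in iPSC, day 28 gave 17.8 and 6.13 CPM, and day 35 gave 11.8 and 3.33 CPM in ESC and iPSC. The kinase of cyclin E thus had no overlap between day 18 and days 28 and 35, and ESC replicate 3 of day 21 stood below the rest of its day. E2f1 measured 116, 20.2 and 57.5 CPM in the ESC and 99.4 and 55.98 CPM in the iPSC libraries of day 18, and 36.97, 21.5 and 7.74 CPM (ESC) and 27.6 CPM (iPSC) at day 21. For E2f1, day 25 gave 27.6 CPM in ESC and 24.4 and 7.04 CPM in iPSC, day 28 gave 44.2 and 3.35 CPM, and day 35 gave 6.81 and 2.11 CPM in ESC and iPSC. E2f1, the S phase activator, kept 44.2 CPM in the ESC library of day 28, above ESC replicate 2 of day 18. E2f2, its close relative, had a day 18 mean of 13.5 ± 4.25 CPM (SD, n = 5) and a mean over days 28 and 35 of 4.16 ± 2.42 CPM (SD, n = 4).

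Of the mitosis genes, Cdk1 is the kinase that drives entry into mitosis and Ccnb1 its cyclin. Cdk1 measured 74.9, 23.6 and 36.2 CPM in the ESC and 81.6 and 40.7 CPM in the iPSC libraries of day 18, and 35.4, 17.3 and 3.21 CPM (ESC) and 10.96 CPM (iPSC) at day 21. For Cdk1, day 25 gave 8.65 CPM in ESC and 13.2 and 2.54 CPM in iPSC, day 28 gave 23.3 and 3.51 CPM, and day 35 gave 10.3 and 0.990 CPM in ESC and iPSC. Every library of days 28 and 35 was below every day 18 library, by a margin of under 1 CPM between the ESC library of day 28 and ESC replicate 2 of day 18. Ccnb1 measured 96.8, 14.7 and 41.99 CPM in the ESC and 120 and 47.7 CPM in the iPSC libraries of day 18, and 46.1, 18.1 and 3.40 CPM (ESC) and 12.1 CPM (iPSC) at day 21. For Ccnb1, day 25 gave 10.2 CPM in ESC and 22.9 and 4.66 CPM in iPSC, day 28 gave 23.1 and 7.03 CPM, and day 35 gave 11.2 and 0.620 CPM in ESC and iPSC. ESC replicate 2 of day 18 was again within the later range. Foxm1 encodes the transcription factor of the G2 genes. Foxm1 measured 106, 14.2 and 41.4 CPM in the ESC and 111 and 35.6 CPM in the iPSC libraries of day 18, and 32.5, 17.8 and 2.36 CPM (ESC) and 11.1 CPM (iPSC) at day 21. For Foxm1, day 25 gave 15.1 CPM in ESC and 11.9 and 4.02 CPM in iPSC, day 28 gave 15.9 and 0.230 CPM, and day 35 gave 8.65 and 1.00 CPM in ESC and iPSC. In the iPSC library of day 28 Foxm1 was under the 0.640 CPM that 3 counts were worth there. Ccna2, cyclin A2, which acts in S phase and G2, was at 76.1 CPM in the iPSC library of day 35, above the 23.4 and 54.0 CPM of ESC replicates 2 and 3 of day 18, while Ccnb2 in the same library was at 1.19 CPM.

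The chromosomal passenger complex corrects attachment of chromosomes to the spindle; Aurkb is its kinase and Birc5 (survivin) a subunit. Birc5 measured 71.3, 15.3 and 41.3 CPM in the ESC and 69.2 and 34.5 CPM in the iPSC libraries of day 18, and 27.4, 16.3 and 6.87 CPM (ESC) and 12.03 CPM (iPSC) at day 21. For Birc5, day 25 gave 11.9 CPM in ESC and 15.7 and 6.23 CPM in iPSC, day 28 gave 20.5 and 3.62 CPM, and day 35 gave 7.20 and 4.02 CPM in ESC and iPSC. Aurkb measured 45.2, 8.43 and 20.1 CPM in the ESC and 46.9 and 19.8 CPM in the iPSC libraries of day 18, and 21.3, 7.70 and 1.87 CPM (ESC) and 6.09 CPM (iPSC) at day 21. For Aurkb, day 25 gave 7.83 CPM in ESC and 10.1 and 1.27 CPM in iPSC, day 28 gave 9.41 and 0.590 CPM, and day 35 gave 4.17 and 0.360 CPM in ESC and iPSC. Both were higher in the low-Nrl pair than in every other library, and Aurkb was under 3 counts in the iPSC library of day 28. Cenpf is a large protein of the outer kinetochore. Cenpf measured 163, 17.9 and 67.2 CPM in the ESC and 167 and 59.1 CPM in the iPSC libraries of day 18, and 54.98, 44.4 and 6.67 CPM (ESC) and 29.5 CPM (iPSC) at day 21. For Cenpf, day 25 gave 12.6 CPM in ESC and 29.8 and 10.2 CPM in iPSC, day 28 gave 34.9 and 4.56 CPM, and day 35 gave 17.3 and 2.28 CPM in ESC and iPSC. Cenpe, the kinetochore motor, had the largest ratio between 2 libraries of day 18 (16.2-fold), from 6.21 CPM in ESC replicate 2 to 101 CPM in iPSC replicate 1. Top2a, the topoisomerase that untangles sister chromosomes, and Mki67, the proliferation antigen that coats mitotic chromosomes, are common marks of dividing cells. Top2a measured 352, 53.7 and 197 CPM in the ESC and 403 and 189 CPM in the iPSC libraries of day 18, and 132, 83.97 and 27.6 CPM (ESC) and 56.4 CPM (iPSC) at day 21. For Top2a, day 25 gave 48.3 CPM in ESC and 80.3 and 34.8 CPM in iPSC, day 28 gave 86.96 and 27.5 CPM, and day 35 gave 46.99 and 21.9 CPM in ESC and iPSC. Mki67 measured 406, 66.5 and 146 CPM in the ESC and 462 and 172 CPM in the iPSC libraries of day 18, and 135, 62.3 and 9.60 CPM (ESC) and 43.5 CPM (iPSC) at day 21. For Mki67, day 25 gave 38.05 CPM in ESC and 77.1 and 21.9 CPM in iPSC, day 28 gave 84.2 and 5.14 CPM, and day 35 gave 35.3 and 1.20 CPM in ESC and iPSC. In both genes the late iPSC libraries were below the late ESC libraries. The remaining mitosis genes are the kinases Plk1 and Aurka, the checkpoint and anaphase genes Bub1, Bub1b, Cdc20 and Ube2c, the spindle and cytokinesis genes Kif11, Kif20a, Kif23, Tpx2 and Nusap1, and the centromere histone Cenpa. Their day 18 means ran from 19.6 ± 8.31 CPM (SD, n = 5) for Aurka to 87.4 ± 56.9 CPM (SD, n = 5) for Tpx2, and their means over days 28 and 35 from 4.32 ± 4.83 CPM (SD, n = 4) for Bub1 to 16.2 ± 14.3 CPM (SD, n = 4) for Tpx2.

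Days 25, 28 and 35 were first compared with day 18 as a block, which asks whether the genes were lower once rods had formed. In this comparison 38 of the 44 genes fell and none rose: 12 of 16 replication genes, 4 of 5 G1/S regulators and 22 of 23 mitosis genes (limma, Benjamini-Hochberg adjusted p under 0.05 over 15202 genes). Over all genes 7.64% fell and 9.47% rose. The median change over the 44 was -2.01 on the log2(CPM + 1) scale, against 0.006 over all genes. The largest falls were in Mki67 (log2 fold change -3.18 ± 0.85 SE, adjusted p = 0.0248), Foxm1 (-2.93), Mcm3 (-2.90 ± 0.60, adjusted p = 0.0102), Bub1, a spindle checkpoint kinase (-2.63), Cdk1 (-2.60), Kif23, a motor of cytokinesis (-2.58), Cenpf (-2.53) and Mcm5 (-2.52). The other 30 that fell had changes between -2.52 (Aurkb) and -0.97 (Pcna, adjusted p = 0.0357). The genes that did not pass were Gins2 (-0.28, adjusted p = 0.491), Ccne2 (-0.32, adjusted p = 0.398), Pold1, the catalytic subunit of polymerase delta (-0.77), Tyms, thymidylate synthase (-0.97), Ccna2 (-1.02) and Prim1, the primase (-1.37, adjusted p = 0.062). On summed transcript counts, which were complete for 28 of the 44 genes, edgeR's quasi-likelihood test called 25 lower, and 8.68% of all genes it tested. After scaling every library to an equal total CPM, limma called 40 of the 44 lower, and over all genes 11.5% fell and 8.06% rose.

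These calls rested on the low-Nrl pair. Without it 0 of the 44 genes passed in limma (the smallest adjusted p was 0.15), and 0.0662% of all genes fell. At an unadjusted p under 0.05 in limma, 31 of the 44 were lower (960 of all 15111 genes were). Of the 44 values 43 stayed below 0, and their median was -1.41. Mki67 then had a log2 fold change of -2.32 ± 0.96 (adjusted p = 0.271) and Mcm3 of -2.13 ± 0.64 (adjusted p = 0.151). Gins2 was the gene that moved the other way, from -0.28 to -0.65. Leaving out 1 library also moved the count: it was 1 without iPSC day 18 replicate 1 (0.64% of all genes fell), 12 without ESC day 18 replicate 1 (1.88%), 10 without the iPSC library of day 28 (1.6%), 17 without that of day 35 (2.72%) and 21 without the ESC library of day 25 (2.66%). The share over all genes was thus lower as well in each of these fits than with all libraries. Contrasts within a single source came from a fit of 1 mean per group to all 16 libraries. Within ESC 0 genes were called (median -1.34), and within iPSC 0 (median -2.79). In both contrasts 0% of all genes fell. Without the pair whose Ddx3y level goes against its source at day 18 (ESC replicate 1 and iPSC replicate 2) the count was 5 (2.06% of all genes fell).

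**Figure D2:**
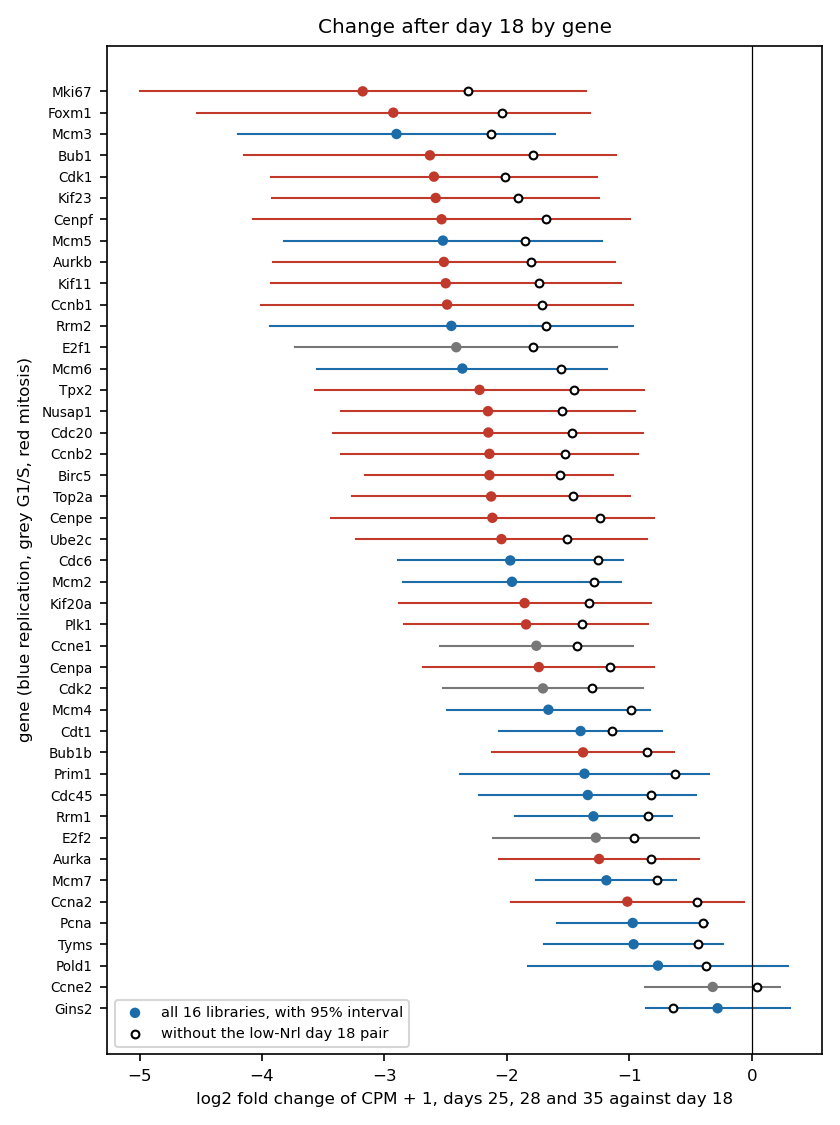
Change of each gene from day 18 to days 25, 28 and 35 as log2 fold change of CPM + 1 (x axis); filled points with 95% intervals use all 16 libraries (blue replication, grey G1/S, red mitosis) and open points leave out the low-Nrl day 18 pair. Open points lie closer to 0 for all genes except Gins2, and with all libraries 38 of 44 genes passed the test.

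Each later day was also compared with day 18 on its own. At day 21, 0 of the 44 genes were called in limma. Of the 44, 34 were lower at an unadjusted p under 0.05 (1298 of all 15202 genes were). The median change of the 44 was -1.51, and -0.97 without the low-Nrl pair, and after adjustment 0% of all genes fell or rose. At day 25, 0 were called and 38 were lower unadjusted (1664 of all 15202 genes were), with a median of -1.75 (-1.11 without the pair). After adjustment 0% of all genes fell and 0.0395% rose. At day 28, 0 were called and 34 were lower unadjusted (1644 of all 15202 genes were), with a median of -1.87 (-1.19 without the pair). After adjustment 0.0724% of all genes fell and 0.507% rose. On summed counts edgeR called 0 of 28 genes on each of these days. DESeq2 called 2 of 28 lower at day 21, 16 at day 25 and 7 at day 28, where it called 0.502%, 4.59% and 3.16% of all genes it tested lower. Gins2 was the only gene with a fitted value above 0, at day 21 (0.06) and at day 25 (0.10, adjusted p = 0.866). The spread of the 5 day 18 libraries enters all of these comparisons, which share them as the control.

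At day 35 the test called 16 of the 44 genes lower and none higher, against 2.99% of all genes lower and 4.54% higher. They were 7 of 16 replication genes, 3 of 5 G1/S regulators and 6 of 23 mitosis genes, and the median over all 44 was -2.39 (0.045 over all genes). The 8 largest were Mki67 (-4.41 ± 1.19 SE, adjusted p = 0.0408), E2f1 (-3.57, adjusted p = 0.028), Ccnb1 (-3.51), Cdk1 (-3.25), Mcm3 (-3.18), Ccnb2, the second cyclin B (-2.83), Mcm6 (-2.77) and Birc5 (-2.66). The other 8, Mcm2, Cenpa, Ccne1, Cdk2, Cdc6, Cdt1, Rrm1 and Mcm7, had changes between -2.45 and -1.46. The smaller count among mitosis genes went with wider errors: their median 95% interval reached 1.78 to either side, and that of replication genes 1.25. Several mitosis genes with larger values than called replication genes missed the threshold, among them Bub1 (-3.32, adjusted p = 0.0584) and Foxm1 (-3.395, adjusted p = 0.0644).

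The day 35 count also depended on single libraries. In limma it was 0 without the low-Nrl pair (median -1.86, smallest adjusted p = 0.109), where 0.271% of all genes fell. Unadjusted, 35 of the 44 were lower there (1049 of all 15111 genes were). The count was 0 for the contrasts within ESC (0.0197% of all genes fell) and within iPSC (0.25%). It was also 0 without the pair of day 18 whose Ddx3y goes against its source (0.996%). It was 0 without iPSC day 18 replicate 1 (0.706% of all genes fell), 1 without ESC day 18 replicate 1 (1.17%), and 1 without the iPSC library of day 35 (0.29%). The count was 5 without the ESC library of day 35 (2.35%) and 6 without ESC day 18 replicate 3 (1.93%). It was 7 without ESC day 21 replicate 2 (2.23%), ESC day 25 (2.19%) or iPSC day 21 (2.31%), and 10 without iPSC day 18 replicate 2 (3.17%) or iPSC day 25 replicate 2 (2.42%). In the other direction it was 28 without ESC day 21 replicate 3 (3.33% of all genes fell) and 37 without ESC day 18 replicate 2 (6.04%). The share over all genes moved the same way as the count of the 44 in these fits, except without iPSC day 18 replicate 2, where the share of all genes that fell was above the 2.99% of all libraries. ESC day 18 replicate 2 held low values of most of the 44 genes together with low progenitor markers (a sum of 455 CPM). Its pigment epithelium markers summed to 1566 CPM, where the rest of day 18 had 20.6 to 162 CPM. Its fibroblast markers summed to 271 CPM (3.20 to 25.6 CPM in the rest) and its bipolar cell markers to 126 CPM (35.0 to 51.1 CPM); the part of these cells in the result was not tested. On summed counts edgeR called 6 of 28 genes lower (2.64% of all genes it tested) and DESeq2 25 (9% of all).

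Other genes of the same processes were taken from 2 lists by role, 43 of replication and 58 of mitosis. In the comparison of days 25, 28 and 35 with day 18, 7.64% of all genes fell and 9.47% rose. Of the 43 other replication genes 24 fell and none rose, with a median of -0.88 (-0.50 without the low-Nrl pair). The largest were Uhrf1, which maintains DNA methylation at the fork (-2.58), Pole, the leading strand polymerase (-1.97), Chaf1b, a chromatin assembly factor (-1.92), and Pole2 (-1.73). Of the 58 other mitosis genes 49 fell and none rose, with a median of -1.74 (-1.12 without the pair), led by the condensin subunit Ncapg (-2.61), the mitotic kinase Pbk (-2.53), separase, Espl1 (-2.41), and the kinetochore gene Ndc80 (-2.38). At day 35 alone 2.99% of all genes fell. The count for other replication genes was 6 of 43, led by Uhrf1 (-3.42), Chaf1b (-2.32), Gmnn, the inhibitor of Cdt1 (-2.23), and Dbf4, the partner of the S phase kinase (-2.05). For other mitosis genes it was 13 of 58, led by Pbk (-3.44), Ncapg (-3.27), Espl1 (-3.12) and Ncaph (-3.05). Without the low-Nrl pair 1 other replication gene was called at day 35, where 0.271% of all genes fell. Otherwise 0 genes of either list were called, and 0.0662% of all genes fell over days 25, 28 and 35.

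Replication and mitosis genes were then set against each other. At day 35 the median change was -1.60 over the 16 replication genes and -2.69 over the 23 mitosis genes, a difference of 1.08 on the log2 scale, which is a description with no test because genes of a group are not replicates. Without the low-Nrl pair the medians were -1.04 and -2.11 and the difference 1.07. It was not alike in the 2 sources: 0.33 within the ESC libraries and 1.55 within the iPSC libraries, and 0.39 without the single iPSC library of day 35. The difference was also taken within each library. At day 18 the replication mean minus the mitosis mean ran from -0.31 to 0.46, at day 21 from -0.38 to 0.68 and at day 25 from -0.07 to 0.63. At day 28 it was -0.02 in ESC and 1.07 in iPSC, and at day 35 it was 0.28 in ESC and 1.17 in iPSC. The mitosis mean itself was 4.46 and 3.44 in the ESC libraries of days 28 and 35 and 2.32 and 2.10 in the iPSC libraries, while the replication means lay between 3.27 and 4.44. ESC day 21 replicate 3 had a mitosis mean of 2.60 and a difference of 0.68, and the highest rod marker sum of its day, 11126 CPM. Low counts compress changes on the log2(CPM + 1) scale, and with a pseudocount of 0.1 the day 35 difference was 1.31.

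**Figure D3:**
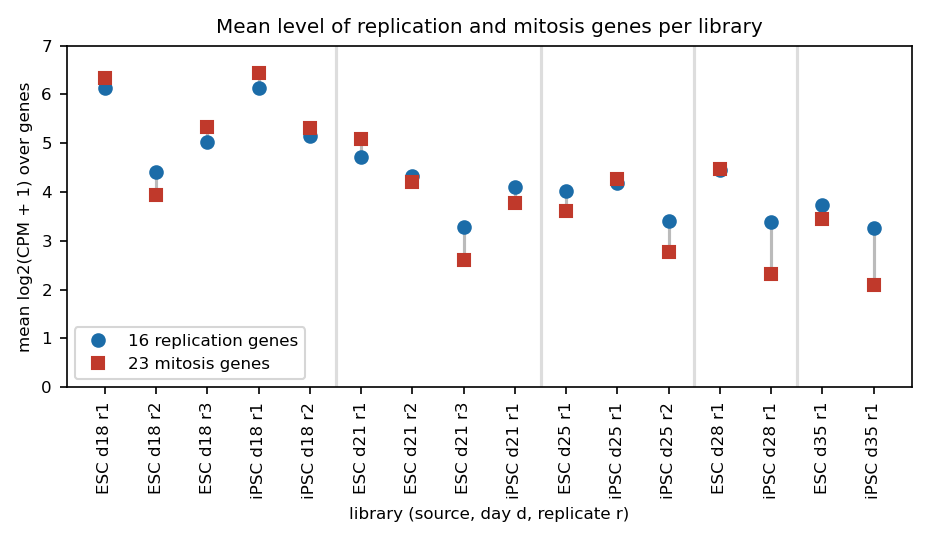
Mean log2(CPM + 1) over the 16 replication genes (circles) and the 23 mitosis genes (squares) in each library, ordered by day; grey bars join the 2 means of a library. The means lie within 0.46 of each other at day 18, and the mitosis mean is lower by 1.07 and 1.17 in the iPSC libraries of days 28 and 35.

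A further fall after day 25 was not detected. Days 28 and 35 compared with day 25 gave 0 called genes of 44 and 0 at an unadjusted p under 0.05 (edgeR 0, DESeq2 0 of 28), while 0% of all genes were called and 1278 of 15202 reached that p unadjusted. The median change was -0.38, with a median 95% interval of 1.35 to either side. As a share of the day 25 mean CPM, the mean over days 28 and 35 had a median of 85.0% over the 44 genes.

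The level left at days 28 and 35 was a median of 20.6% of the day 18 mean over the 44 genes, against 101.7% over all genes tested. It was 31.7% over the replication genes, 26.8% over the G1/S regulators and 19.1% over the mitosis genes. The least was left of Foxm1 (10.5%), Bub1 (12.3%) and Mcm3 (12.5%), and the most of Ccne2 (81.4%), Gins2 (74.8%) and Ccna2 (50.7%). Pcna kept 46.0%, with 55.9 ± 6.01 CPM (SD, n = 4) at days 28 and 35. Without the low-Nrl pair the median was 32.5%, and those of the replication genes, G1/S regulators and mitosis genes were 49.4%, 36.3% and 31.3%. The shares of Foxm1, Bub1 and Mcm3 were then 21.2%, 25.0% and 23.8%, those of Pcna, Ccna2 and Gins2 were 76.3%, 80.4% and 61.3%, and Ccne2 was at 111.0%, the only gene above its day 18 mean. Without the ESC library of day 28 the median was 13.2%. In 11 of the 44 genes every library of days 28 and 35 was below every day 18 library, against 3.91% of all genes, and without the low-Nrl pair this held for 12 (4.64% of all genes), Gins2 being the addition.

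The ESC and iPSC libraries were compared over all days. None of the 44 genes was called in either direction and 0 had an unadjusted p under 0.05 in limma (edgeR 0, DESeq2 0 of 28). Of all genes 0% were called, and 840 of 15202 reached that p unadjusted. The median difference of the 44, iPSC minus ESC, was -0.23 (-0.36 without the low-Nrl pair), with a median 95% interval of 0.925 to either side. At the late days the 2 sources were further apart. In the iPSC libraries of both day 28 and day 35, 35 of the 44 genes were below the ESC library of the same day, against 28.4% of all genes; the exceptions were Cdt1, Cdc45, Gins2, Pold1, Pcna, Tyms, Ccne2, Ccna2 and Bub1b. The level left at days 28 and 35, as a share of the day 18 mean over both sources, had a median of 34.4% in ESC and 10.1% in iPSC. For the mitosis genes the medians were 30.7% and 6.4%, and for the replication genes 35.0% and 25.5%. Mki67 was left at 23.8% in ESC and 1.3% in iPSC, E2f1 at 36.5% and 3.9%, and Foxm1 at 20.0% and 1.0%. Set against the day 18 mean without the low-Nrl pair, the medians over the 44 were 53.9% in ESC and 17.2% in iPSC, those of the mitosis genes 50.3% and 10.0%, and those of the replication genes 55.2% and 37.5%. Mki67 was then at 46.6% and 2.5%, E2f1 at 57.3% and 6.1%, and Foxm1 at 40.5% and 2.0%.

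With 1 library per source and day this difference did not pass a test. A limma model with 1 mean per group, a comparison added after these values were seen, was fitted. It called 0 of the 44 genes for days 28 and 35, iPSC minus ESC, against 0.171% of all genes. At an unadjusted p under 0.05, 8 of the 44 were lower and 0 higher. Of all 15202 genes, 1487 were lower and 627 higher at that p. Mki67 was at -3.92 (95% interval -6.59 to -1.25, adjusted p = 0.211). The change from day 18 to days 28 and 35 in iPSC minus that in ESC, added likewise, gave 0 called (0% of all genes). Unadjusted, 5 of the 44 were lower and 0 higher, against 878 lower and 231 higher of all 15202 genes. Mki67 was at -4.75 (95% interval -8.36 to -1.14, adjusted p = 0.648 in limma), and at -4.72 ± 1.75 SE without the low-Nrl pair. Progenitor markers summed to 1141 and 644 CPM in the ESC libraries of days 28 and 35 and to 243 and 315 CPM in the iPSC libraries. All 12 reached 1 CPM in both sources. In the same order of days, rod markers summed to 7264 and 5714 CPM in ESC and to 15034 and 15635 CPM in iPSC. Müller glia markers summed to 508 and 1416 CPM against 422 and 144 CPM. Pigment epithelium markers summed to 62.5 and 2135 CPM against 281 and 97.3 CPM. Pluripotent stem cell and microglia markers stayed under 6 CPM in every library. The part of these markers' cells in the difference was not tested.

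**Figure D4:**
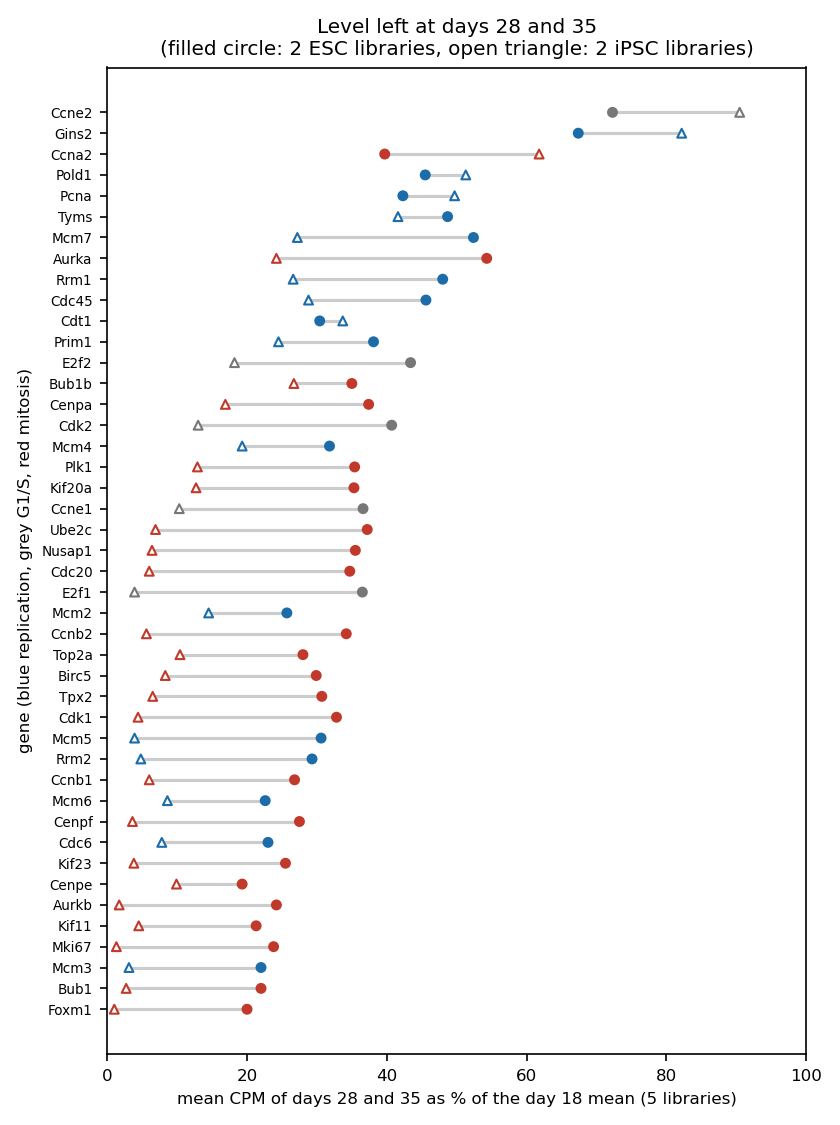
Mean CPM over days 28 and 35 as a percent of the day 18 mean over 5 libraries, for each gene, in the 2 ESC libraries (filled circles) and the 2 iPSC libraries (open triangles) (blue replication, grey G1/S, red mitosis). The medians are 34.4% in ESC and 10.1% in iPSC, and Ccne2, Gins2, Ccna2, Pold1, Pcna and Cdt1 are the genes in which the triangle lies to the right.

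The transcript tables allowed 28 of the genes to be compared per length, in TPM, the unit that scales for both transcript length and library size. By the mean over all 16 libraries Pcna was highest at 175.7 TPM, followed by Top2a at 98.2, Mcm7 at 79.0 and Cdk1 and Gins2 at 66.4 TPM, and Cdc6 was lowest at 4.2 TPM. For most of the 28 the annotated protein-coding transcripts carried the level: their median share was 82.0% at day 18 and 86.2% at days 28 and 35. The level left at days 28 and 35 was a median of 18.5% by all transcripts and 18.9% by protein-coding transcripts, and 30.9% and 30.7% without the low-Nrl pair.

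Top2a and Gins2 departed from this. The coding transcript of Top2a went from a mean of 108.9 TPM at day 18 to 13.1 TPM at days 28 and 35 (17.8% of the day 18 mean was left by all transcripts together). Without the low-Nrl pair its day 18 mean was 57.8 TPM, and the shares left were 22.6% by the coding transcript and 30.4% by all transcripts. In the iPSC library of day 35 it was at 0.55 TPM, or 0.5% of day 18, resting on 19.0 of the 294.5 estimated counts of the gene. A non-coding transcript, Top2a-204 (chromosome 11, 99016593 to 99022210), was at 14.9 TPM there, after 4.35 to 12.1 TPM at day 18. Gins2 (chromosome 8, 120578633 to 120589304) was carried by Gins2-203, a transcript with a retained intron, and its coding transcript held 13.9% of its TPM at day 18 and 9.1% at days 28 and 35. The coding transcript of Gins2 went from 10.3 to 4.7 TPM, leaving 45.2% rather than the 68.9% of all its transcripts, and was at 17.3 and 11.6 TPM in the low-Nrl pair and 3.45 to 9.67 TPM in the other day 18 libraries. This order turned without the pair, where 61.9% was left by the coding transcript of Gins2 and 57.2% by all. E2f2 was left at 19.0% by its coding transcript and 28.5% by all (23.6% and 37.3% without the pair). Tyms went the other way, at 63.6% and 41.8% (72.0% and 68.6% without the pair).

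**Figure D5:**
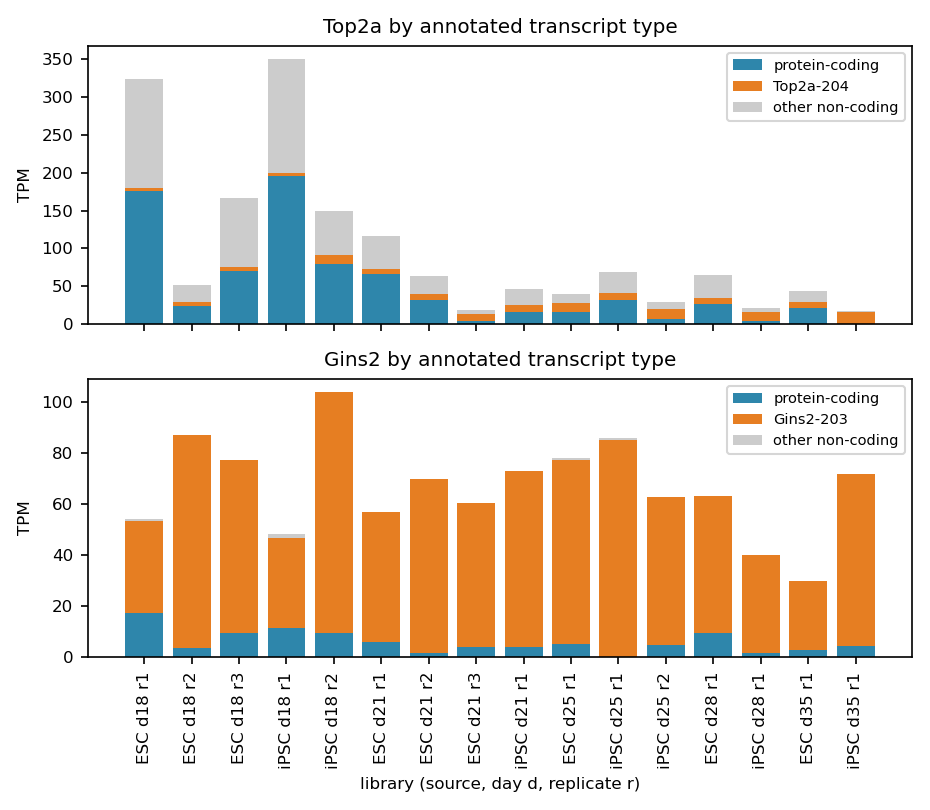
TPM of Top2a (top) and Gins2 (bottom) in each library, stacked by annotated transcript: protein-coding (blue), the most abundant late non-coding transcript (orange, Top2a-204 or Gins2-203) and other non-coding transcripts (grey). The orange part makes up most of Top2a in the iPSC library of day 35 and most of Gins2 in all 16 libraries.

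Some of the genes share bases with a neighbour. Gins2 overlaps the end of Gse1 on the other strand (chromosome 8, 120578633 to 120581390), and Gse1 was at 64.9 CPM in the ESC library of day 35, where Gins2 had its lowest level of 45.2 CPM, against 84.6 to 516 CPM elsewhere. Ccna2 (chromosome 3, 36564865 to 36572150) overlaps Exosc9 on the other strand (36564865 to 36565727), which was at 35.3 CPM in the iPSC library of day 35 and at 19.9 to 48.0 CPM elsewhere; the transcripts of Ccna2 were not analysed here. Overlaps with a gene on the other strand were also annotated for Mcm7, Ccne2, Cdk2, Cdc20, Kif20a and Nusap1. The neighbour of Cdk2 is Pmel, which is among the pigment epithelium markers. Those markers summed to 1566 CPM in ESC day 18 replicate 2 and to 2135 CPM in the ESC library of day 35. The part of Pmel in the level of Cdk2 was not tested. Cdt1 lies over its whole length within Gm20388, which is annotated on the same strand and also spans Gins2 on the other strand, so reads of Cdt1 and Gm20388 cannot be told apart by strand. The library kit marks strand, but the strand setting of the quantification is not given in the sources used here, so the values of these genes are uncertain to that extent.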

How the data were processed

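PolyA RNA of 16 libraries of sorted Nrlp-GFP-positive cells was read with 3 tables the authors deposited. Adapters were trimmed with Trimmomatic 0.36 and transcripts quantified with kallisto 0.42.5 against Ensembl cDNA of GRCm38.p4, then summarised by gene in tximport with length scaling and converted to CPM by edgeR, per the series design text and the submitters' processing notes. The deposited gene table holds a transformed score that runs from -1 to 198.2. CPM was recovered from the authors' values as 2 to the power of the square root of (score + 1), minus 1; the ratio of this CPM to the deposited TPM was constant over libraries, within 0.001 on the log2 scale, for 97.7% of 8688 genes. CPM summed to 642418 to 885155 per library over the genes held. For single transcripts the authors deposited estimated counts and TPM, listed for 65535 transcripts, and sums were complete for 11078 genes and 28 of the 44 genes described.

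The test was limma 3.58.1 with trend in R 4.3.3, on log2(CPM + 1), for genes with at least 1 CPM in at least 2 libraries, fitted to all 16 libraries with day and source as factors, and Benjamini-Hochberg adjustment over 15202 genes. The pseudocount of 1 understates changes of low genes. Errors are standard errors (SE) or 95% intervals of limma, or SD over libraries. Single counts set the precision: values under 3 estimated counts were read as the floor. Alternatives were a pseudocount of 0.1, no filter, a minimum of 5 CPM, rescaled CPM, a replicate block and array weights. Each library or pair was also left out. Contrasts within each source used a fit of 1 mean per group to all 16 libraries, so both sources shared its estimate of the spread. The tests of edgeR 4.0.16 and DESeq2 1.42.0 were run on summed estimated counts rounded to whole numbers. The fit was tested on simulated data. The members, lists and comparisons were chosen with earlier results of these data known. Named genes were 14 given in every library, the 8 largest called changes of a comparison, the 3 highest and 3 lowest residual levels, and the 4 largest of each further list. Transcript types and positions are those of GENCODE M21 (GRCm38). Figures were drawn with matplotlib 3.10.9.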

Additional observations from a re-analysis of the deposited data

Results flagged for a closer look

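In groups of 4 or 5 libraries, 1 library lay far from the others for 3 genes, all at day 21, out of 88 such checks; chance gives about 1 in 20. Mcm7, a helicase subunit, was at 44.6 CPM in ESC replicate 3 and at 58.55 to 61.27 CPM in the other day 21 libraries. Cdk2 was at 6.74 CPM in the same library and at 20.38 to 24.13 CPM in the others. Gins2 was at 93.09 CPM in ESC replicate 1 and at 127.79 to 133.8 CPM in the others.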

How the results depend on the processing

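No gene named in every library reversed its direction in any alternative for day 35 or for days 25, 28 and 35 against day 18. For day 35 against day 18, 16 genes were called with all settings as reported. The count was 2 without a filter on low genes, 6 of 28 with edgeR, 25 of 28 with DESeq2, 40 with the replicate block and 1 with array weights. It was 0 without the low-Nrl pair, 0 without the Ddx3y pair, 0 within either source, and 0 to 37 with 1 library left out. For days 25, 28 and 35 against day 18 it was 38, and became 24 without a filter, 25 of 28 with edgeR, 0 without the low-Nrl pair, 5 without the Ddx3y pair, 0 within either source, and 1 to 41 with 1 library left out. The counts of 0 became, with DESeq2, 2 at day 21, 16 at day 25 and 7 at day 28; with array weights 42, 44 (43 lower and Gins2 higher) and 42; with the replicate block 36 at day 25 and 39 at day 28; and 0 to 2 at day 28 with 1 library left out. Over all genes, array weights called 20.4%, 31.5% and 20.1% lower at days 21, 25 and 28 and 0.487% at day 35, and the replicate block 5.93%, 7.65% and 9.41% at days 25, 28 and 35. Without a filter 1.04% of all genes fell at day 35 and 2.77% over days 25, 28 and 35. The counts of 41 over days 25, 28 and 35 and of 2 at day 28 came without ESC day 18 replicate 2. In those fits 10.7% and 0.624% of all genes fell. Array weights gave the low-Nrl pair weights of 13.6 and 6.11, against 0.301 to 3.07 for the other libraries. Replicate numbers were not shown to pair the libraries. Same-numbered ESC libraries of days 18 and 21 correlated at 0.314, 0.059 and 0.249, and not every library correlated best with its own number. The iPSC libraries of days 18 and 25 gave 0.381 with the same number and -0.381 with the other. With 2 libraries in each group these are a single value with its sign turned, so they cannot decide the pairing. The replication minus mitosis difference at day 35 (1.08) was 0.328 within ESC and 1.548 within iPSC, and 0.392 to 1.402 with 1 library left out. The libraries of days 28 and 35 all carry replicate number 1, which at day 18 is that of the low-Nrl pair. The replicate block thus places those libraries and the pair in 1 block, and the effect on its counts was not tested. Settings that leave out libraries test fewer samples. The cause of the other shifts was not tested. Days 28 and 35 have 1 library per source, whose spread is taken from the other groups, and depth limits genes near 0.640 CPM in the iPSC library of day 28.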
